A study of Saccharomyces cerevisiae with 11 samples.

Results

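The filamentous growth regulators examined here were the 10 Saccharomyces cerevisiae genes FLO8, FLO11, TEC1, STE12, PHD1, SOK2, MSS11, MGA1, SFL1 and GPR1, chosen by name and looked up by systematic name among 4551 open reading frames (ORFs) with a transcript leader call. A transcript leader runs in an mRNA from the cap to the start codon, and its length in nucleotides (nt) was the deposited value, 1 per gene and library. TL-seq, which sequences capped 5′ ends, was made from Sigma 1278b with pyrophosphatase, the enzyme that opens the cap for ligation (1 library), from Sigma 1278b without it (1 library), and from S288C (2 biological replicates). TATL-seq applied the same idea to the 7 fractions of a polysome gradient from BY4742, 1 library each, in which mRNAs sediment by their ribosome load. Per the labels, the Sigma cells were of mating type a and carried ura3, leu2, trp1 and his3; the BY4742 cells were of mating type α and carried deletions in HIS3, LEU2, LYS2 and URA3. All cultures were shaken flasks in mid-log growth, in rich glucose medium with adenine. The labels name no genotype for S288C beyond the strain, and give no order of density for the fractions.

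In filamentous growth, yeast cells elongate, stay attached and invade the substrate, a behaviour that Sigma 1278b shows and S288C has lost. Signals reach the genes along a mitogen-activated protein kinase (MAPK) branch, which ends in Ste12 and its partner Tec1, and along a cyclic AMP and protein kinase A (PKA) branch, which the receptor Gpr1 feeds and which acts through Flo8 and Sfl1. Both branches meet at the promoter of FLO11, the gene for the cell-surface flocculin that holds cells together.

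A leader was called for 6 of the 10 regulators in at least 1 of the 11 libraries. The calls numbered 1 of 10 in Sigma with pyrophosphatase, against 41.4% of the 4551 ORFs. They numbered 4, 2, 2, 2, 2, 3 and 2 of 10 in fractions 1 to 7, where the shares of all ORFs were 45.7%, 53.0%, 54.6%, 54.3%, 53.7%, 54.5% and 53.7%. In each S288C replicate 3 of 10 were called, beside 78.2% of ORFs in replicate 1 and 75.6% in replicate 2. None was called in Sigma without pyrophosphatase, beside 4.48% of ORFs. Those percentages take ORFs called somewhere as their base, whereas the 10 were chosen by name. Of the 6021 protein-coding genes of the RefSeq table of assembly R64, 4549 (75.6%) had a call, and of the 9 regulators listed there as protein-coding 6 did. With these 6021 genes as base, the shares were 31.3% in Sigma with pyrophosphatase, 34.5% in fraction 1 and at most 41.2% in the other fractions. They were 59.1% and 57.1% in S288C replicates 1 and 2, and 3.39% in Sigma without pyrophosphatase. On that base the 4 of 10 regulators in fraction 1 lay above the share, and the counts in all other libraries lay below it. The files give no reads, so a missing call may be low expression, low depth or the authors' filters, and these cannot be told apart.

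The surface end of the pathway and its receptor gave no call in any library, Sigma included. These genes were FLO11 (YIR019C; chromosome IX, 389572 to 393675 in R64) and GPR1 (YDL035C; chromosome IV, 389172 to 392057), the glucose-sensing receptor of the PKA branch. STE12 (YHR084W; chromosome VIII, 274174 to 276240), the transcription factor of the MAPK branch, and FLO8 (YER109C; chromosome V, 375215 to 377614), an activator of FLO11, gave none either. FLO8 carries a nonsense mutation in S288C and is listed as a pseudogene in the RefSeq table. The sources used here do not give the authors' annotation, so whether FLO8 could have received a call is unknown.

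TEC1 (YBR083W; chromosome II, 409169 to 410629), for the transcription factor that joins Ste12 on filamentation genes, was the regulator called most often, in 10 of 11 libraries. Its leader was 41 nt long in Sigma. In the gradient it was 29 nt in fraction 3 and 31 nt in each of the other 6 fractions. In S288C it was 34 nt in both replicates. Sigma thus held the highest value and the fractions the lowest, and no value of one strain or method lay within the values of another. In its own library the TEC1 leader was longer than 58.2% of ORFs in Sigma, 42.2 to 44.7% in the fractions, and 39.1 and 39.2% in the S288C replicates.

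MSS11 (YMR164C; chromosome XIII, 587274 to 589550), for a transcription factor that activates FLO11 together with Flo8, was called in all 7 fractions and both S288C replicates but not in Sigma. Its leader was 121 nt in fractions 1 to 5 and 7 and 136 nt in fraction 6. The S288C replicates had 137 and 149 nt. Fraction 6 stood above 6 fractions of identical length and next to S288C replicate 1. In every library with a call the MSS11 leader was longer than 82.6 to 91.1% of the ORFs called there.

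SOK2 (YMR016C; chromosome XIII, 303236 to 305593) and PHD1 (YKL043W; chromosome XI, 356748 to 357848) encode related DNA-binding proteins of the APSES family, of which Phd1 promotes filaments and Sok2 represses them. With calls in 2 libraries for SOK2 and in 1 for PHD1, no library called both, and so few calls say little about overlap. SOK2 had 225 nt in both S288C replicates and no call in Sigma or in any fraction, a pattern that 543 of the 3144 ORFs called in both replicates (17.3%) shared. PHD1 had 189 nt in fraction 1 and no other call. That leader reached 84 nt into the next protein-coding gene upstream, MMO1, which is read in the same direction, ends 105 nt before the PHD1 start codon and had no call of its own. Of 4545 ORFs with a protein-coding gene ending upstream, 14 (0.308%) had a median leader longer than the gap.

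MGA1 and SFL1 encode proteins with a DNA-binding domain like that of heat shock factor; Sfl1 represses flocculin genes, and extra copies of MGA1 restore filaments in mutants that lack ammonium permeases. MGA1 (YGR249W; chromosome VII, 988049 to 989419) had 360 nt in fraction 1, where 63 of 2081 ORFs were longer. SFL1 (YOR140W; chromosome XV, 586981 to 589281) had 203 nt in fraction 6, where 117 of 2480 were longer. Neither had a second call, so their lengths have no replicate. ORFs called in a single library numbered 491 (10.8%), 56 of them in fraction 1 and 24 in fraction 6.

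**Figure D1:**
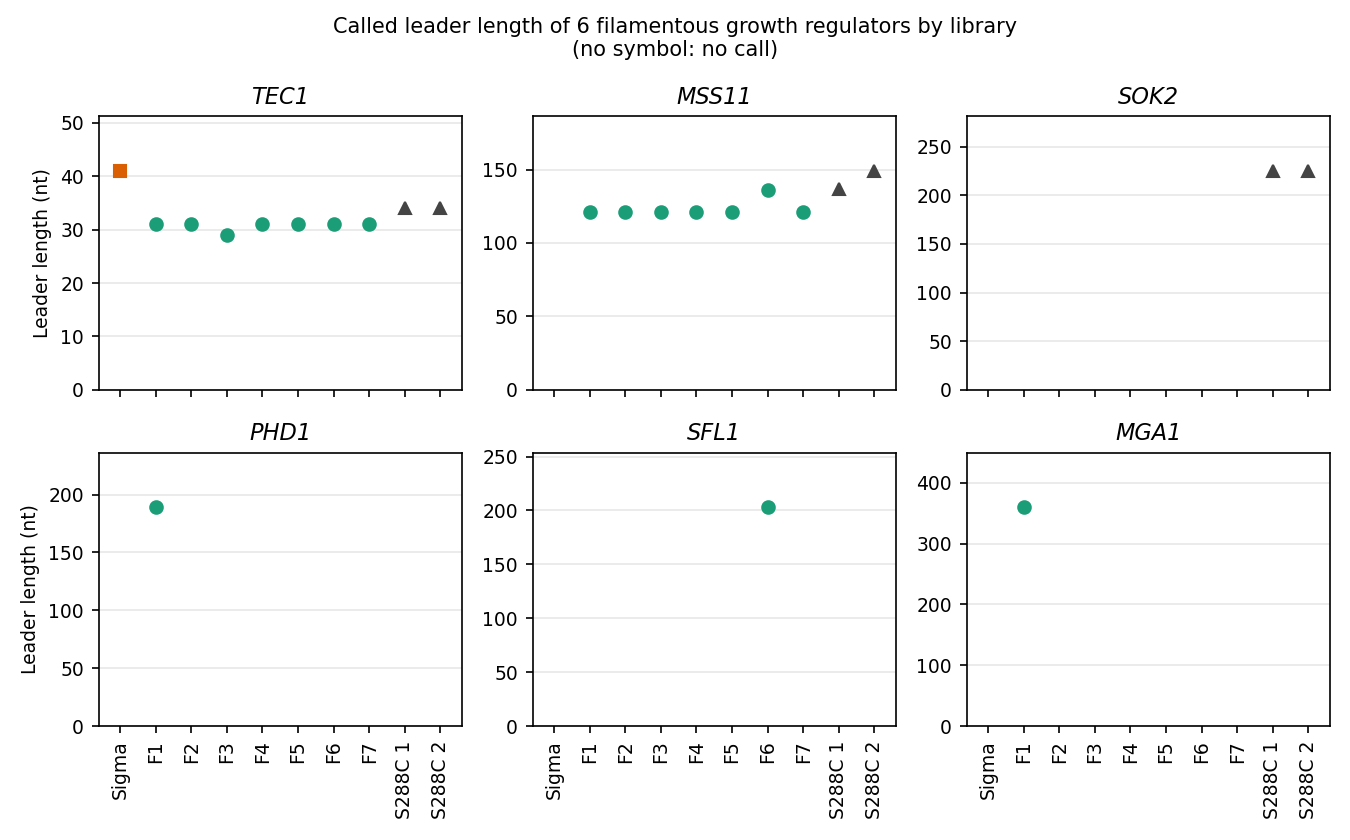
Leader length in nt (y axis, starting at 0, own scale per gene) of the 6 regulators with a call, by library (x axis): Sigma TL-seq (square), gradient fractions F1 to F7 (circles) and the S288C TL-seq replicates (triangles); a missing symbol is a missing call. TEC1 stands at 41 nt in Sigma, 29 to 31 nt in the fractions and 34 nt in S288C, and MSS11 stands at 121 nt in 6 fractions and at 136 nt in fraction 6.

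Apart from TEC1, the regulators with a call had long leaders. By the median over the libraries with pyrophosphatase, the lengths ran from 31 nt for TEC1 through 121 nt for MSS11, 189 nt for PHD1, 203 nt for SFL1 and 225 nt for SOK2 to 360 nt for MGA1. At least 100 nt were reached by 5 of 6, beside 856 of 4550 ORFs (18.8%), and the median of the 6 was 196 nt, beside 40 nt. Calls in few libraries went with longer leaders over all ORFs too: 157 of the 495 ORFs called in 1 such library (31.7%) had at least 100 nt, beside 17.2% of those called in 2 or more. Of the 3 regulators called in at least 2 libraries, 2 had at least 100 nt. The regulators and lists were chosen with results of these data known, so no test was made of these counts.

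**Figure D2:**
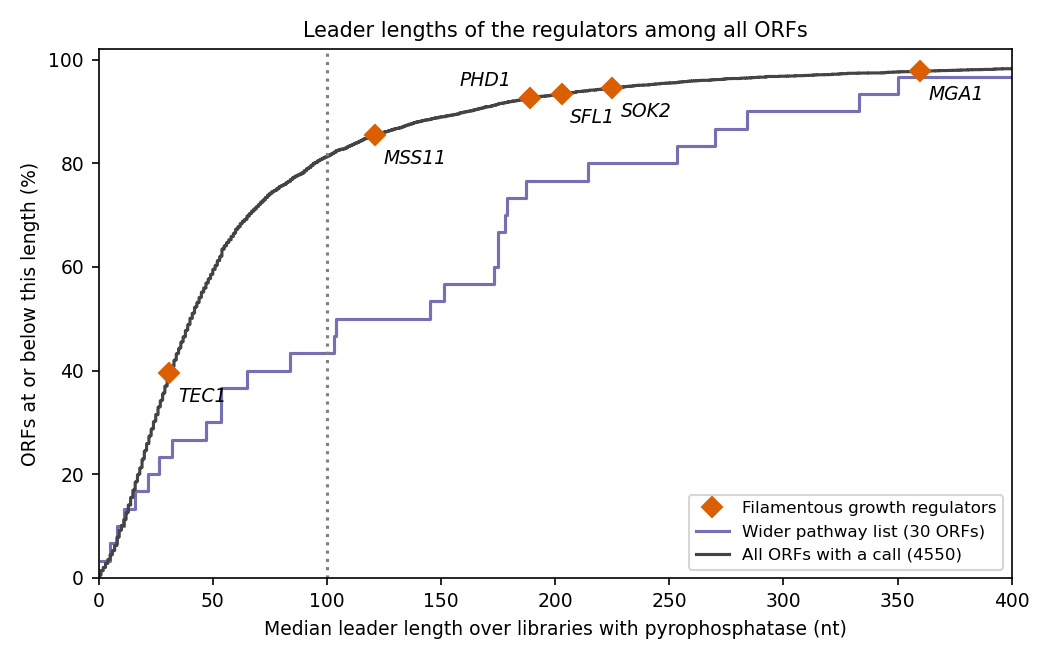
Share of ORFs (y axis, percent) with a median leader at or below a given length (x axis, nt) for all 4550 ORFs with a call and for 30 genes of the wider pathway list; diamonds place the 6 regulators on the curve of all ORFs and the dotted line marks 100 nt; longer ORFs lie beyond the right edge. MSS11, PHD1, SFL1, SOK2 and MGA1 lie right of the line and TEC1, at 31 nt, left of it.

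The first comparison, Sigma against S288C TL-seq, asked whether leaders differ between the filamentous and the reference strain. ORFs whose S288C replicates were no more than 10 nt apart were compared, and one counted as different where Sigma exceeded both replicates, or fell short of both, by 10 nt or more. TEC1 was the 1 regulator that could be compared, and with 41 nt in Sigma against 34 nt ± 0 in S288C (SD, n = 2) its difference of 7 nt did not reach that limit, beside 541 of 1324 ORFs (40.9%) that did. Of all these ORFs 13.2% were longer and 27.6% shorter in Sigma, with a median difference of −4.5 nt. Once that median was subtracted, the difference of TEC1 was 11.5 nt and passed, and 239 ORFs were longer and 258 shorter. With 1 Sigma library no test of a gene is possible, and the 2 S288C libraries were run on another sequencer than the other 9, so strain and sequencer cannot be told apart.

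Set against the median of the gradient fractions, from the same sequencer, the Sigma leader of TEC1 was longer, at 41 nt against 31 nt. The difference of 10 nt stood exactly at the limit, which 187 of 1789 ORFs (10.5%) passed in this direction, 9.39% in the other and 19.8% in either. Leaving out any single fraction left the difference at 10 nt. Method, strain and mating type differ between these libraries and cannot be told apart.

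The gradient was then set against S288C TL-seq. BY4742 and S288C share a strain background, but method and sequencer differ between these libraries and cannot be told apart. The TEC1 leader was 31 nt by the median of fractions and 34 nt in S288C, a difference of −3 nt, which turned to 2 nt once the median difference over all ORFs was subtracted, and where 1002 of 2261 ORFs (44.3%) differed by at least 10 nt. The MSS11 leader was 121 nt by the median of fractions and 143 nt ± 8.49 in S288C (SD, n = 2). It lay 22 nt below the S288C mean, with differences of −16 nt from replicate 1 and −28 nt from replicate 2. It was kept out of the count because its replicates lay 12 nt apart, more than the 10 nt allowed. Of the ORFs called in both replicates, 407 of 3144 (12.9%) lay 10 nt or more apart. Those at exactly 10 nt were not kept out. The fractions' median was still below both replicates by more than the distance between them. Shorter leaders in the fractions were common, with 709 of 2261 ORFs (31.4%) shorter by at least 10 nt against 293 (13.0%) longer; with the median difference of −5 nt subtracted, 461 were shorter and 429 longer.

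Across the fractions, TEC1 varied by 2 nt and MSS11 by 15 nt, so 1 of the 2 regulators called in at least 5 fractions had a range of 10 nt or more, beside 638 of 2062 ORFs (30.9%). The range of MSS11 rested on fraction 6 and was 0 nt without it. Among 1221 ORFs called in all 7 fractions, 185 had 1 length in 6 of them and another in the remaining one, and in 49 of these that fraction lay at least 10 nt away. Fraction 6 was the one that stood apart in 15 of the 49, longer in 9 and shorter in 6. Fraction 1 did so in 17 and fraction 3 in 10. Each fraction is 1 library, so no spread between replicates bears on this value. The ORF whose lengths moved most like those of MSS11 was YOR296W, with 87 nt in 6 fractions, 97 nt in fraction 6 and 115 nt in both S288C replicates. After each ORF's own median was subtracted, the 2 differed by a mean of 1.89 nt over 9 shared libraries, the smallest among 1531 ORFs compared. JAC1, for a mitochondrial co-chaperone, came next with a mean of 2.0 nt over 8 libraries; it had 19 nt in Sigma and in every fraction and 36 nt in S288C replicate 1.

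The wider pathway was described by a list of 48 further genes, of which 30 had a call, beside 75.6% of protein-coding genes. They were 11 of 14 genes of the MAPK branch, 7 of 15 of the cyclic AMP and PKA branch, 12 of 15 other regulators and targets, and none of the 4 other flocculin genes FLO1, FLO5, FLO9 and FLO10. At least 100 nt were reached by 17 of the 30, with a median of 124.5 nt, beside 18.8% of all ORFs and their median of 40 nt. As for the regulators, the list was chosen with results known and was not tested. In the MAPK branch these were 4 of 11: the mucin-like sensor gene MSB2 (175 nt), the sensor gene SHO1 (151.5 nt), the GTPase gene CDC42 (214.5 nt) and the kinase gene STE20 (103 nt). In the PKA branch they were 4 of 7: CYR1, for adenylate cyclase (145 nt), BCY1, for the regulatory subunit of PKA (104 nt), and the catalytic subunit genes TPK2 (178 nt) and TPK3 (175 nt). Of the others they were 9 of 12, among them the kinase gene SNF1 (284 nt) and CYC8 (187 nt) and TUP1 (173 nt), for the corepressor that Sfl1 recruits.

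**Figure D3:**
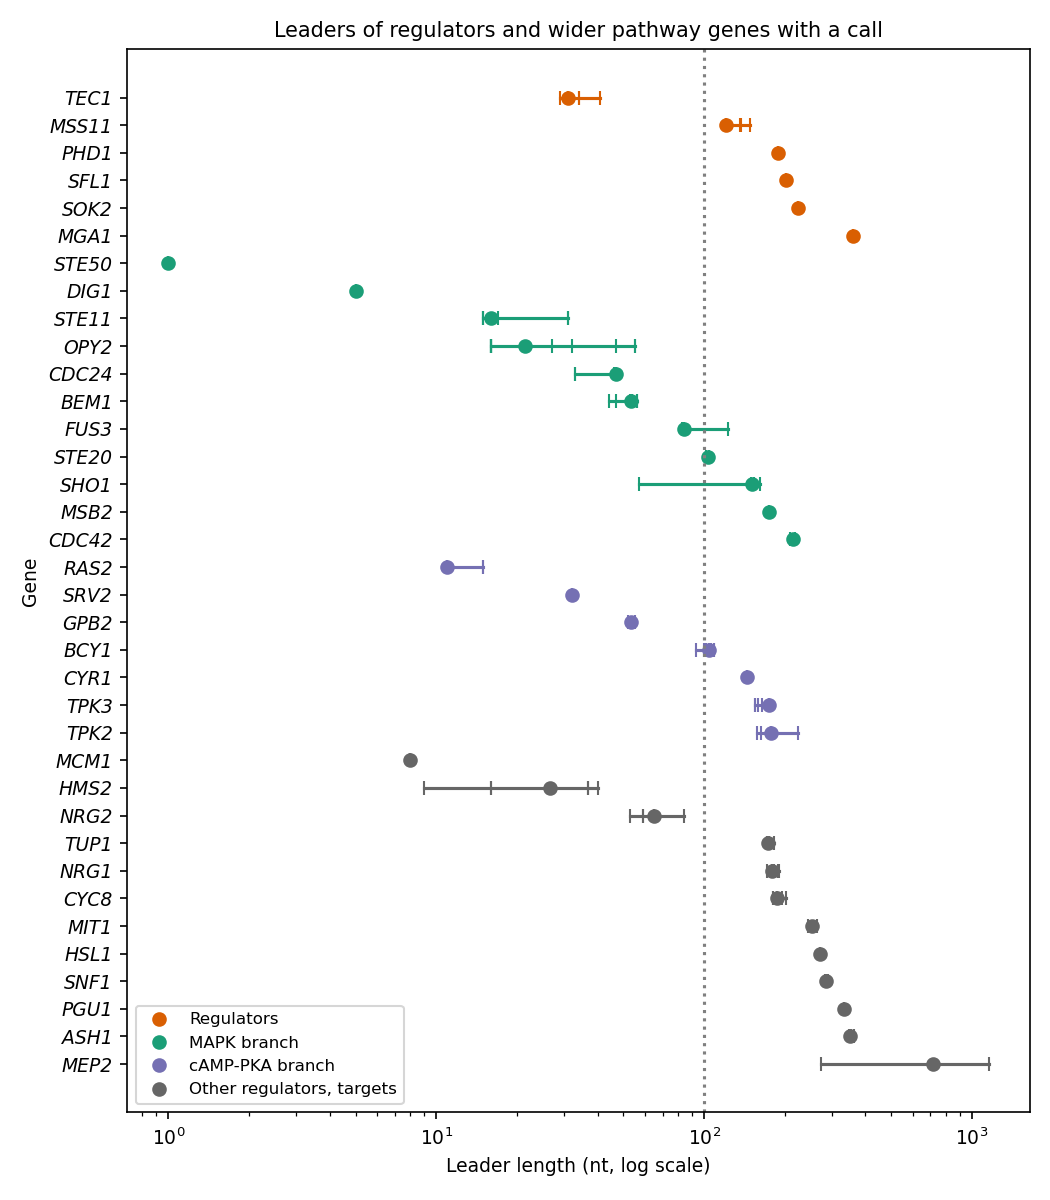
Leader length in nt (x axis, log scale) of the 6 regulators and the 30 wider pathway genes with a call (y axis), in libraries with pyrophosphatase; circles are medians, ticks single libraries and lines the span from lowest to highest, and the dotted line marks 100 nt. TEC1 lies left of the line at 31 nt and the other 5 regulators right of it, and the genes of the MAPK branch lie on both sides.

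Pathway genes differed from S288C in both directions, in Sigma and in the gradient median. Between Sigma and S288C, 2 of 5 passed the limit, near the 40.9% of all ORFs: TPK3 was longer, at 175 nt against 155 nt, and STE11, the kinase at the head of the MAPK cascade proper, was shorter, at 15 nt against 31 nt. CYC8 had 187 nt in Sigma against 195 and 203 nt in S288C and did not pass. Without S288C replicate 1, 4 of 6 passed, CYC8 and TPK2 with them, and without replicate 2, 3 of 6, beside 45.4% of all ORFs in each case. TPK2, with 178 nt in Sigma, was 47 nt shorter than replicate 2 (225 nt) but 15 nt longer than replicate 1 (163 nt), so its direction depended on the replicate kept. Against the gradient median, Sigma was longer in 3 of 7 and shorter in none. Of all ORFs 10.5% were longer, 9.39% shorter and 19.8% different in either direction. OPY2, for a membrane anchor of the MAPK branch, had 47 against 16 nt. The regulator gene MIT1 had 263 against 244 nt in the 1 fraction that called it, and TUP1 had 182 against 172 nt, exactly at the limit. With calls in at least 3 fractions required, 2 of 6 differed, beside 18.8% of all ORFs. At 20 nt 1 of 7 differed, beside 9.61%, and at 5 nt 3 of 7, beside 34.3%. The gradient median differed from S288C in 5 of 13, 2 longer and 3 shorter, beside 44.3% of all ORFs. Among them were OPY2 (16 against 55 nt), HMS2 (16 against 37 nt, but 40 nt in fraction 3), TPK3 (175 against 155 nt) and STE11 (15 against 31 nt). The count was 9 of 16 without S288C replicate 1, beside 48.8% of all ORFs, and 6 of 15 without replicate 2, beside 48.3%. TPK3 and STE11 thus had the same length in Sigma and in the gradient median. Within the gradient, 6 of 11 had a range of 10 nt or more, beside 30.9% of all ORFs, with 20 nt for TPK2 and NRG1, a repressor gene, and 16 nt for OPY2 and TPK3. The range of TPK2 rested on fraction 2 and was 1 nt without it. Without fraction 3 the count of pathway genes was 4 of 11, beside 27.5% of all ORFs. Leaving out any other single fraction gave 5 or 6. At limits of 5 and 20 nt the count was 8 and 2 of 11, beside 47.0% and 11.5%.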

How the data were processed

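Each of the 11 files lists genes and 1 leader length in nt per gene, without header, reads or depth. Per the submitters' processing notes reads were aligned with Bowtie, and to sacCer3 in the 9 libraries other than S288C TL-seq; for S288C TL-seq the build, and for all the rule that made a length, were not stated in the sources used here. The deposited lengths were used unchanged, and they are lengths and not counts, so no count test or depth interval applies. ORF names were matched to RefSeq's table of assembly R64 for symbols, positions and neighbours (nearest protein-coding gene ending before the start codon, strand from the systematic name). The 4551 ORFs are the names listed there as protein-coding or pseudogene, and any other names were left out. For the gradient, lengths were summarised by the median of the fractions that called the gene. Rules used limits of 10 nt, at least 5 of 7 fractions for a range, and 100 nt for a long leader. They were applied to all ORFs (Python 3.11.15, pandas 2.3.3). Simulated lengths with shifts far above 10 nt in Sigma, and with a noise-free change in a single fraction, were run through the rules. Such changes were bound to be found, so the check does not bear on differences near the limit. The gradient against S288C and the 100 nt limit were not simulated. Named were all 10 regulators, up to 4 pathway genes per comparison by size of difference, and the 2 ORFs with the profile most like that of a varying regulator called in at least 9 libraries; the pathway genes named for long leaders, for single values or in the closing section were chosen after their values were seen. Members and lists were chosen with earlier results of these data known. Alternatives were other limits, left-out libraries and a subtracted median. Upstream AUGs and the base at the 5′ end were planned but not analysed here, because no sequence was used.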

Additional observations from a re-analysis of the deposited data

How the results depend on the processing

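With limits of 5 and 20 nt, the ORFs counted as different numbered 904 and 269 for Sigma against S288C, 613 and 172 for Sigma against the gradient, 1581 and 478 for the gradient against S288C, and 969 and 238 for the range over fractions. Asking for all 7 fractions gave 345 of 1221 ORFs (28.3%) with a range of 10 nt or more, beside 638 of 2062 (30.9%) with at least 5. TEC1 differed between Sigma and S288C at 5 nt (1 of 1 regulators) and after subtraction of the median (1 of 1), and no longer differed between Sigma and the gradient at 20 nt (0 of 1). MSS11 entered the gradient comparison, and differed there, when either S288C replicate was left out or the limit on replicates was lifted (1 of 2 regulators each), the last an alternative added after the data were seen. The cause of these shifts was not tested. The range of MSS11 no longer counted at 20 nt or without fraction 6 (0 of 2). Thresholds for a long leader of 50 and 150 nt, also added later, gave 1884 and 505 ORFs, and with at least 2 libraries 2 of 3 regulators. At 150 nt MSS11, with a median of 121 nt, was no longer counted. Leaving out S288C replicate 1 or 2 gave 712 of 1569 and 725 of 1596 ORFs for Sigma against S288C (45.4% each). For the gradient against S288C the counts were 1337 of 2737 (48.8%) and 1351 of 2795 (48.3%). The difference of TEC1 between the gradient and S288C, −3 nt, turned to 2 nt after subtraction of the median and stayed under the limit both ways. No paired analysis was possible because S288C alone has replicates, so no 2 groups share 2 replicate numbers. Depth cannot be judged from lengths, so the missing calls of FLO8, FLO11, STE12 and GPR1 do not show that these mRNAs were absent.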

Other observations

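Some pathway genes had lengths far apart in single libraries. They were picked after their values were seen, and outside S288C each value is 1 library without a replicate. MEP2, for the ammonium permease that also signals nitrogen starvation, had 1155 nt in fraction 7 and 273 nt in S288C replicate 2. SHO1 had 57 nt in fraction 1 and 162, 150 and 153 nt in fractions 5 to 7. FUS3, for the mating MAPK, had 123 nt in fraction 1 against 83 and 84 nt in fractions 3 and 5. HMS2 had 40 nt in fraction 3, 16 nt in fractions 4 and 5 and 9 nt in fraction 7. By contrast MCM1, for a cofactor of mating genes, had 8 nt in all 8 libraries with a call, and PGU1, for a secreted pectinase, 333 nt in fractions 6 and 7. TPK2 had 163 and 225 nt in the S288C replicates, and 178 nt in Sigma and in 4 fractions.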
